A study of Mus musculus with 8 samples.

Results

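The liver of young Sirt1-null mice was compared directly with the liver of old wild type (WT) mice, to ask where the mutant liver does and does not resemble the old one. Of the 8 arrays in the series, 4 enter this difference. They are the 2 arrays labelled as sirt1 KO at 3 months (mutant, MT) and the 2 labelled as wild type at 19 months, chosen from the sample descriptions. MT mice are homozygous for a targeted deletion of exons of Sirt1 in every tissue, and most such mice die before birth, so the adults measured are survivors. Both groups share a genetic background mixed from 129, FVB and Black Swiss and a 12-hour light environment. They also share a morning window of killing, with no time stated for any single mouse. The groups differ in genotype and in age at once, and the parts of these 2 factors in any value below cannot be told apart. RNA was read on 1-colour Affymetrix arrays, on which a gene is represented by 1 or more probe sets, and the values are MAS5 signals. The study's text names more mice than arrays for each group, and does not state whether the RNA of an array came from a single animal or from several. What a group of 2 stands for is therefore not settled, so the p-values reflect how far these arrays of a group lie apart, a spread that may be technical.

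Sirt1 encodes a NAD-dependent deacetylase that removes acetyl groups from histones and from regulators of the clock and of metabolism. In the liver clock the activators Clock and Bmal1 (gene Arntl) bind E-box sites and drive the Per, Cry, Rev-erb and PAR bZIP genes, several of whose products feed back on the activators. The clock in turn sets a daily rhythm of bile acid, glycogen, lipid and heme genes in hepatocytes. In old liver, lymphocytes, plasma cells and resident macrophages (Kupffer cells) are often found in larger numbers.

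The deposited signals were similar in overall scale, which the scaling of each array by MAS5 largely fixes. The median signal was 81.5 and 82.8 on the MT arrays and 76.4 and 82.7 on the 19-month arrays. Across the 22519 tested probe sets the log2 signals of the MT pair correlated at r = 0.970 and those of the 19-month pair at 0.977, while the 4 pairs across groups lay between 0.963 and 0.966. These correlations run across probe sets of whole arrays and describe the libraries only. All 18 measured hepatocyte markers on a list of 20 were tested, with a median log2 signal of 15.5, which fits the labelled tissue. The difference between the 3′ and 5′ probe sets of actin, a sign of RNA integrity, was 0.97 and 1.48 (log2) in MT mice and 1.23 and 1.25 in 19-month mice. The same difference for pyruvate carboxylase was 3.88 and 3.93 in MT mice and 5.86 and 4.77 in 19-month mice, so it moved with the group, and its part in the results was not tested. Xist lay at or above the 95.2nd percentile and Y-linked probe sets at or below the 42.8th percentile on all 4 arrays, whereas the methods describe the mutant mice as male.

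Few probe sets separated the young MT liver from the old WT liver. Of 22519 tested, 62 (0.275%) passed at an adjusted p under 0.05 in limma with Benjamini-Hochberg adjustment. In MT mice 20 of them were higher (0.0888% of those tested) and 42 lower (0.187%). Fold changes exceeded 2 for 58. The arrays of the groups did not overlap for any of the 62, which passing the test nearly fixes, nor for 44.2% of all tested probe sets. At an unadjusted p under 0.05 the number was 2919, with 1318 higher and 1601 lower. By contrast, the 95% interval of the difference lay wholly within 2-fold for 15149 probe sets (67.3%). With 1 probe set per gene, that of highest mean, this held for 8121 of 10976 genes (74%), and the median log2 difference over all genes was -0.01. Of all genes, 14.6% had an unadjusted p under 0.05 and 48.5% lay above 0, the shares to hold beside the counts of list members below.

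The count of 62 depended on the arrays used to estimate the spread. The model used all 8 arrays, of which the WT arrays of 3 and 12 months added only to the estimate of spread. With the 4 arrays alone 30 passed, 18 of them shared with the 62, and without the 3-month WT arrays 26 passed, all shared. Without 19-month array 2 the number was 6, without 19-month array 1 it was 24, and without MT array 2 it was 29. Leaving out either 12-month array raised it to 112 or 108, and leaving out either 3-month WT array gave 25 or 26. All 62 differences kept their sign whichever array was left out, but just 1 probe set, of Igha, passed under all 8 omissions. Centring each array on its median gave 87, of which 19 were higher in MT mice, a more one-sided split than 20 of 62.

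**Figure D1:**
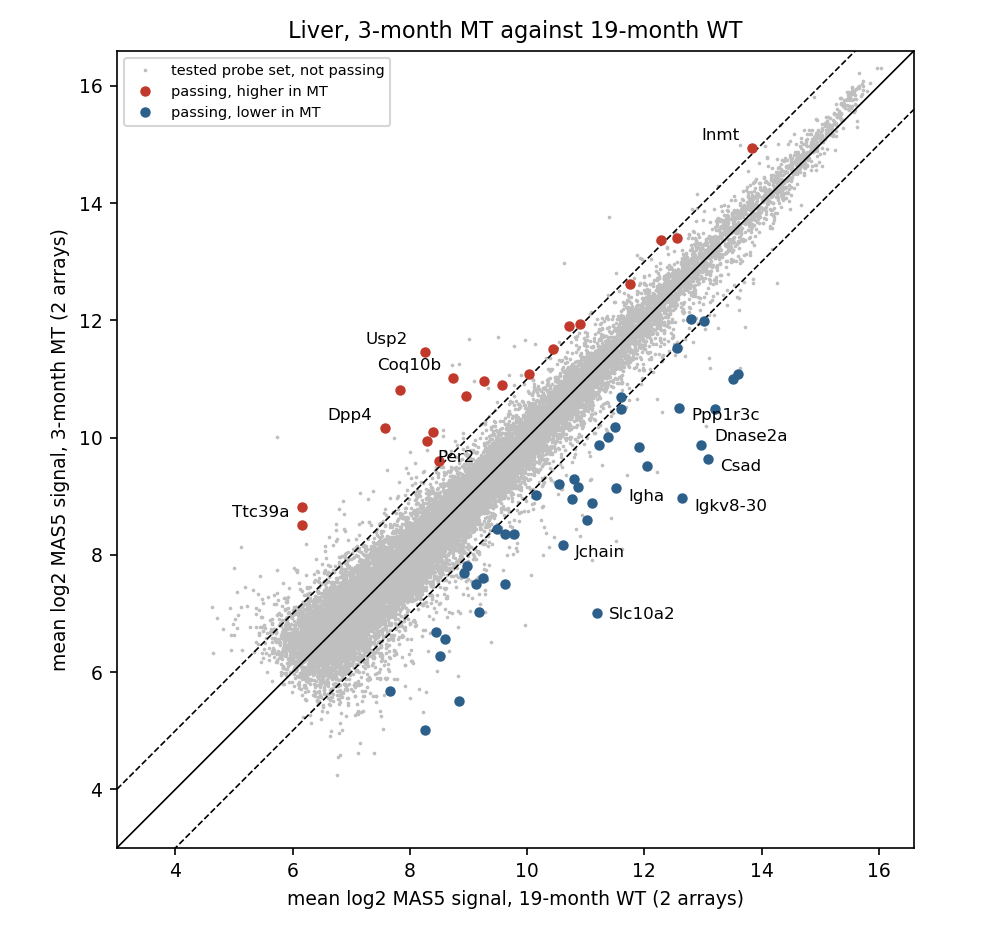
Mean log2 MAS5 signal of each of the 22519 tested probe sets in 19-month WT (x axis) and 3-month MT liver (y axis), each the mean of 2 arrays; the solid line marks equality and the dashed lines 2-fold. Most points lie between the dashed lines, and the 62 coloured probe sets passed limma's test, 20 higher (red) and 42 lower (blue) in MT mice.

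Of the genes on 3 clock lists, Usp2 and Per2 passed, and both were higher in the young MT liver than in the old WT liver. Usp2, a deubiquitinase with a strong daily rhythm, had signals of 2754 and 2855 in MT mice and 369 and 253 in 19-month WT mice. On the log2 scale it differed by 3.20 ± 0.30 (SE, 2 arrays in each group, adjusted p = 0.00993 by limma), and a second Usp2 probe set differed by 2.97 (adjusted p = 0.0360). Per2, a repressor of the clock, had signals of 1004 and 967 in MT mice and 321 and 308 in 19-month mice, a difference of 1.65 ± 0.21 (adjusted p = 0.0210). The arrays of each pair lay close together and the groups did not overlap for either gene. A second Per2 probe set, with signals of 341 and 501 against 183 and 75.5, differed by 1.81 and did not pass (adjusted p = 0.421). Per2 did not pass when any of the 4 arrays compared was left out, with the highest adjusted p at 0.132 over all omissions. The first Usp2 probe set passed in 7 of 8 omissions.

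Genes driven through E-boxes, with the PAR bZIP genes, made a list of 13 clock genes. Of these 11 were tested and Per2 alone passed, where 0.337% of all genes did. At an unadjusted p under 0.05 by limma, 4 were higher and 1 lower, where 14.6% of all genes had such a p. The median log2 difference of the 11 genes was 0.60, and 10 lay above 0. Dbp, a PAR bZIP activator of output genes, had signals of 6904 and 9385 in MT mice and 2296 and 1092 in 19-month mice, a difference of 2.35 (adjusted p = 0.321). Per3, another Period gene, had 1054 and 1026 against 384 and 369 (1.47, adjusted p = 0.272). Neither passed, although their arrays were separated. Tef (0.72), Per1 (0.70), Cry2 (0.60), Cry1 (0.51), Nr1d2 (0.23), Bhlhe40 (0.19) and Hlf (0.11) did not pass either. Nr1d1, which encodes the repressor Rev-erb alpha, lay on the other side at -0.99 (adjusted p = 0.171). Ciart, a repressor of Clock and Bmal1, was below the level for testing. It was at 346 and 438 in MT mice and low, below the array median, in 19-month mice, at least 4.90-fold higher in MT mice against that median. Bhlhe41, also below the level for testing, was at 19.5 and 44.8 against 9.31 and 86.8, and its arrays overlapped.

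The Bmal1-phase genes lay lower in MT mice, and none of the 4 tested passed by limma, while Arntl and Rora had an unadjusted p under 0.05. Their median log2 difference was -0.63. Arntl, the gene of Bmal1, had signals of 170 and 176 in MT mice and 442 and 566 in 19-month mice, a difference of -1.53 ± 0.33 (adjusted p = 0.104). The groups were apart on this probe set, which fell short of the threshold after adjustment. A second Arntl probe set, at 70.4 and 84.8 against 69.7 and 172, differed by -0.50 with overlapping arrays (adjusted p = 0.693). Nfil3 (-0.76), Rora (-0.50) and Clock (-0.32) did not pass, and Npas2, a partner of Bmal1, was low in MT mice and at 124 and 113 in 19-month mice. Among 11 genes of clock output Usp2 passed, and 8 lay above 0, with a median of 0.72, or 0.45 without MT array 2. Wee1, a kinase that restrains mitosis, had 867 and 856 against 236 and 281 (1.74, adjusted p = 0.106), and Lgalsl lay at -1.08 (adjusted p = 0.0918). Nampt, the rate-limiting enzyme of NAD salvage, had 1972 and 2081 against 945 and 1274 (0.88, adjusted p = 0.113). Alas1 (1.14), which starts heme synthesis, Noct (1.10), Tsc22d3 (0.72), the glycogen synthase Gys2 (0.61), Tspan4 (0.25), Pnp (-0.20) and Leo1 (-0.36) did not pass.

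**Figure D2:**
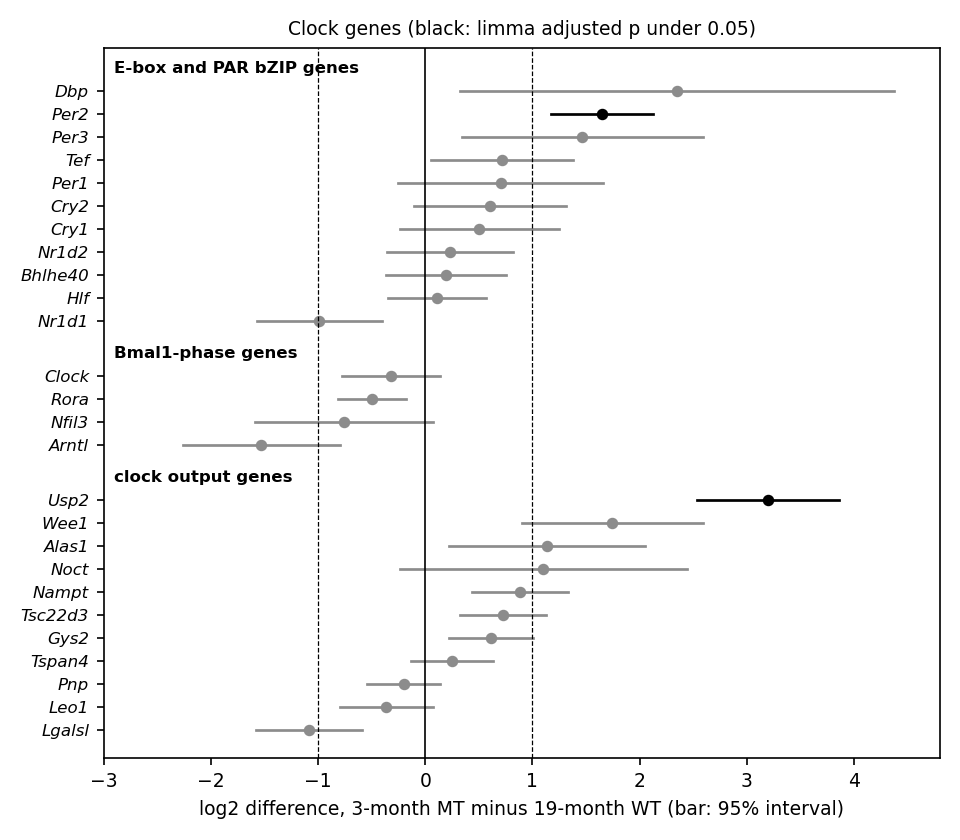
Log2 difference (3-month MT minus 19-month WT, x axis) of each tested clock gene with its 95% interval as a bar, in 3 lists; dashed lines mark 2-fold. Per2 and Usp2 (black) passed limma's test, 10 of 11 E-box and PAR bZIP genes lie right of 0 and all 4 Bmal1-phase genes lie left of it.

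Outside the clock, genes of several functions were higher in MT mice. Coq10b, which binds coenzyme Q in mitochondria, had signals of 2103 and 1885 in MT mice and 492 and 773 in 19-month mice, a difference of 1.69 (adjusted p = 0.0360), and a second probe set differed by 2.28 (adjusted p = 0.0198). Inmt, an N-methyltransferase of indoleamines, was among the strongest signals on the arrays at 29709 and 33122 against 15743 and 13648 (1.10 ± 0.12, adjusted p = 0.0156). Abhd6, a lipase of monoacylglycerols, differed by 1.20 (adjusted p = 0.0292), and by 1.70 on its second probe set (adjusted p = 0.0198). Gpcpd1, a glycerophosphocholine phosphodiesterase, differed by 1.31 (adjusted p = 0.0250). For each of these 4 genes the arrays of the groups were apart and every tested probe set lay above 0.

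Ttc39a had signals of 379 and 349 in MT mice and 60.8 and 83.7 in 19-month mice (2.35, adjusted p = 0.0219). Tceal8, of the elongation factor A-like family, had 2095 and 1335 against 455 and 540 (1.76, adjusted p = 0.0366). Dpp4, a peptidase that inactivates incretin hormones, differed by 2.58 on 1 probe set (adjusted p = 0.0210), with signals of 789 and 1651 against 233 and 156. Its 3 other tested probe sets differed by 0.17, -0.03 and -0.44 and did not pass, so the probe sets of Dpp4 disagree. Srsf3, a splicing factor, was higher by 1.12 (adjusted p = 0.0427), with 4 other probe sets above 0 and 1 below it, none passing. The scaffold protein gene Slc9a3r1 (1.09, adjusted p = 0.0360) and Marveld1 (1.08, adjusted p = 0.0319) complete the 12 largest. Also passing were Dclre1a, a nuclease of crosslink repair, at 2163 and 2187 against 1047 and 1053 (1.05, adjusted p = 0.0427), Azin1 (1.04), Hopx (0.87) and Dnaja1 (0.86 on 1 of 3 tested probe sets).

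**Figure D3:**
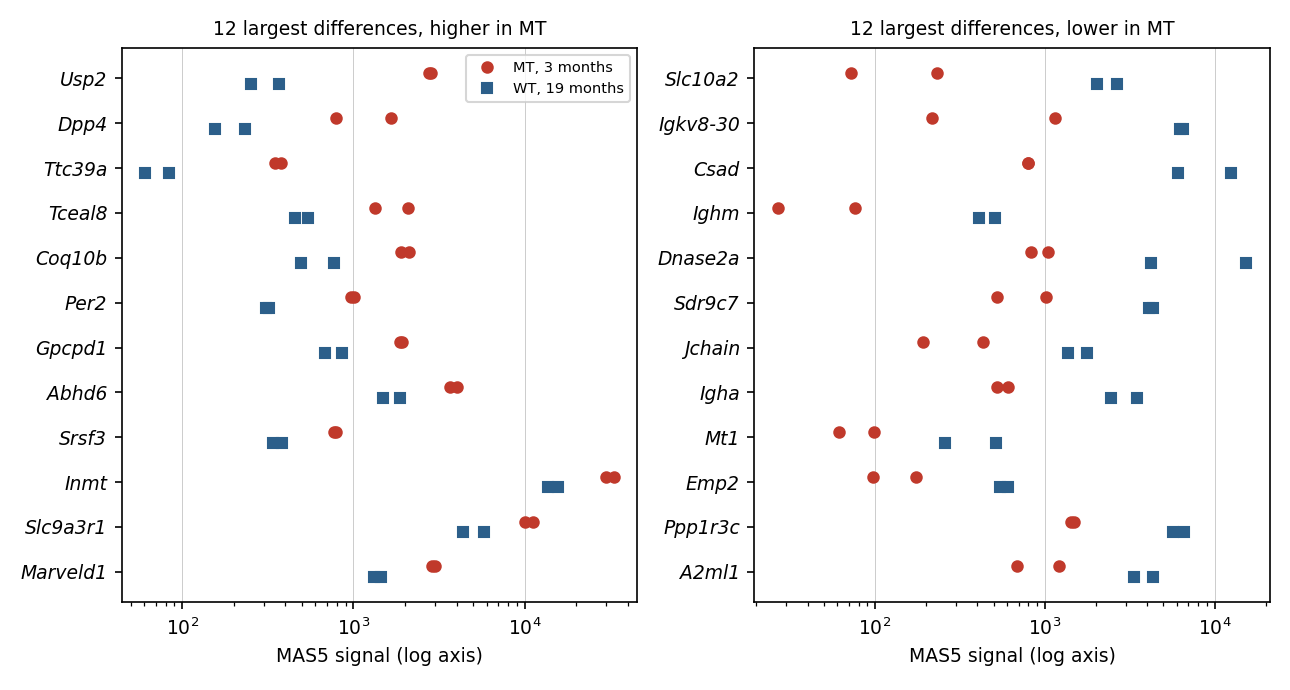
MAS5 signal on a log axis (x) of the 12 genes with the largest passing differences in each direction (y), with a red circle for each MT array and a blue square for each 19-month WT array. The 2 groups do not overlap for any of the 24 probe sets shown.

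The canonical E-box, CACGTG, was looked for in the promoters of these genes, since Clock and Bmal1 bind it. The D-box of PAR bZIP factors was looked for as TTATGTAA, TTACATAA or TTACGTAA, both motifs on both strands. Promoters are RefSeq windows of 250 bases before and 50 after a gene's start, on build GRCm38.p6. The table holds 13 of the 16 genes that were higher, with 17 promoters, and 26 of the 33 that were lower, with 32 promoters. An E-box was found in 3 of the 17 (17.6%) and in 1 of the 32 (3.12%), against 7.15% of all 32851 promoters. For 9 of the tested clock genes of the first list there were 11 promoters, and 4 held it (36.4%), in 3 genes, Cry1, Per1 and Tef. That list was drawn up as genes driven through E-boxes, with the PAR bZIP genes. Its share is thus in part fixed by its making and is no result of these data. A D-box was found in Coq10b among the genes that passed and in Per3 among the clock genes, against 1.06% of all promoters. Neither motif is in the Usp2 window, and the table has no entry for Per2. These are matches of letters, described without a test. The windows of the 4 genes that passed with an E-box, and of Per3 with its pair of D-boxes, are shown 5′ to 3′, with the E-box or D-box letters in capitals.
Coq10b (chr1:55052520-55052819, plus strand): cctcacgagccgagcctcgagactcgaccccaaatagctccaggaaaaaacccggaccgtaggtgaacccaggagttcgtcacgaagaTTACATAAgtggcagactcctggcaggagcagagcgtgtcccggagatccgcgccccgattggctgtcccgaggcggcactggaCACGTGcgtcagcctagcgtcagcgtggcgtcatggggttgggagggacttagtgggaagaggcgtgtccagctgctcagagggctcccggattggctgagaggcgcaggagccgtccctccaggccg
Hopx (chr5:77095218-77095517, minus strand): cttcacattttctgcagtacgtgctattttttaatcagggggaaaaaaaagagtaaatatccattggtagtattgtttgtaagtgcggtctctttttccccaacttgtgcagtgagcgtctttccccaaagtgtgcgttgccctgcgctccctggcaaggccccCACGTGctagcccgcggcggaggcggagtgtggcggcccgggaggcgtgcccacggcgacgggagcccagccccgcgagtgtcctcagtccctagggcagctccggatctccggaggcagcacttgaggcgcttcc
Tceal8 (chrX:136172202-136172501, minus strand): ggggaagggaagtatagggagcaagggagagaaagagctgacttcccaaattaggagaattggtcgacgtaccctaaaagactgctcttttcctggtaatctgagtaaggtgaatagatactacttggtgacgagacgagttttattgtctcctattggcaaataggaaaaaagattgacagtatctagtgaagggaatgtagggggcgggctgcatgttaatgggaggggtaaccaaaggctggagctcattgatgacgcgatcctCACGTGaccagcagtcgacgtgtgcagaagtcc
Ppp1r3c (chr19:36736555-36736854, minus strand): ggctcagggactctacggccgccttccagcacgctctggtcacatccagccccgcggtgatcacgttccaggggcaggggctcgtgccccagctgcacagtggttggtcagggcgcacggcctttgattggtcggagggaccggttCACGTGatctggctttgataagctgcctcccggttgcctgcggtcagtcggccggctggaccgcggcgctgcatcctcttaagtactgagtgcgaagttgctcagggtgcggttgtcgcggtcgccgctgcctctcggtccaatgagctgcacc
Per3 (chr4:151044616-151044915, minus strand): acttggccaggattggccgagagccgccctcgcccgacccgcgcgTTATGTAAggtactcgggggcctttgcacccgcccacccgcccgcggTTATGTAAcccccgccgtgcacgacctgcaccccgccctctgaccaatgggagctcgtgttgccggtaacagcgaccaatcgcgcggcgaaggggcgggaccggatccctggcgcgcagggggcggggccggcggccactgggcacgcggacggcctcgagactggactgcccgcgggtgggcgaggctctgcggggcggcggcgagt

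In Coq10b the E-box begins at -78 from the start of the gene, in Hopx at -86, in Tceal8 at 17 and in Ppp1r3c at -104. The first 3 genes were higher in MT mice and Ppp1r3c was lower.

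In the other direction, a bile acid transporter and an enzyme of taurine synthesis were among the 3 largest differences. Slc10a2, the sodium-dependent bile acid transporter known from ileum and bile ducts, had signals of 233 and 71.8 in MT mice and 2675 and 2025 in 19-month mice, which is -4.17 ± 0.64 on the log2 scale (SE, 2 arrays in each group, adjusted p = 0.0414 by limma). Csad, which makes the taurine used to conjugate bile acids, had 796 and 796 against 6053 and 12438, a difference of -3.45 ± 0.37 (adjusted p = 0.0143). Both were lower in MT mice on every array, and the 19-month pair was spread over a wider range for Csad. Slc10a2 passed in 3 of 8 omissions and Csad in 6.

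Cyp7b1, the oxysterol 7-alpha-hydroxylase of the alternative pathway of bile acid synthesis, had 1670 and 1620 against 2956 and 3253 (-0.91, adjusted p = 0.0458). It was the only 1 of 21 measured bile acid genes on the list, which does not hold Slc10a2, to pass. The median difference of the list was 0.17, with 16 above 0 and 12 within 2-fold, and it was 0.10 without MT array 1, 0.27 without MT array 2 and 0.11 without 19-month array 2. Slc10a1, the main hepatocyte uptake transporter of bile acids, had 43265 and 34968 against 28846 and 25393 (0.52, adjusted p = 0.154). The export pump Abcb11 was alike at 0.06, with an interval of -0.24 to 0.36. For Cyp7a1, the rate-limiting enzyme of the classical pathway, the difference of 0.21 had an interval of -2.29 to 2.71, too wide to place it.

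Further enzymes and regulators were lower in MT mice. Ppp1r3c, which directs protein phosphatase 1 to glycogen, had 1492 and 1423 in MT mice and 6648 and 5724 in 19-month mice (-2.08 ± 0.20, adjusted p = 0.0101). Sdr9c7, a short-chain dehydrogenase, had 1015 and 524 against 4331 and 4090 (-2.53, adjusted p = 0.0132), and -2.43 on a second probe set (adjusted p = 0.0156). Dnase2a, the lysosomal DNase, had 832 and 1045 against 4208 and 15387 (-3.11, adjusted p = 0.0427). The arrays were apart for all 3 genes, and the 19-month arrays differed more from each other for Dnase2a than for the others. Emp2, a membrane protein, differed by -2.15 (adjusted p = 0.0198) and A2ml1, a protease inhibitor, by -2.07 (adjusted p = 0.0219). Mrnip, a partner of the double-strand break repair complex, had 90.9 and 99 against 368 and 410 (-2.03, adjusted p = 0.00993). Mrnip and Dclre1a, in opposite directions, were the 2 that passed of 20 tested DNA repair genes, where 0.337% of all genes passed. On that list 14 genes (70%) were within 2-fold, near the 74% of all genes.

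Further genes that passed lower were Cda, a cytidine deaminase (-1.63), Ypel2 (-1.43 and -1.34 on 2 probe sets) and Ces2e, a carboxylesterase (-1.38). Echdc1, a decarboxylase of ethylmalonyl-CoA (-1.35), Npr2, a natriuretic peptide receptor (-1.26), and Sucnr1, the succinate receptor (-1.12), also passed. Clpx, an unfoldase of the mitochondrial matrix, was at 3850 and 4286 against 8912 and 7761 (-1.03, adjusted p = 0.0343), while its second tested probe set lay at -0.19 and did not pass. Tab2, an adaptor of NF-kappa B signalling (-1.32), Tifa, another such adaptor (-1.64), and Zfp36l1, which promotes decay of mRNAs (-1.04), passed as well. Sdc3 passed on 1 probe set (-1.13) while its 2 other tested probe sets lay above 0 at 0.28 and 0.75.

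Growth hormone feedback and metal binding genes gave mixed readings between probe sets. Socs2, a growth hormone-induced inhibitor of its receptor's signalling, passed on 1 probe set, low in MT mice at 51.7 and 51.2 and at 220 and 186 in 19-month mice, at least 2.47-fold lower in MT mice against the array median (adjusted p = 0.0360). Its probe set of highest mean had 444 and 987 against 4918 and 2248, a difference of -2.33 that did not pass (adjusted p = 0.128). Cish, a related inhibitor, had 134 and 268 against 601 and 674 (-1.75, adjusted p = 0.211), whereas Igf1 was within 2-fold at -0.12 on its probe set of highest mean, with 3 others between -0.48 and -0.65 that did not pass. Mt1, a metallothionein, passed on its weaker probe set at 61.5 and 98.2 against 513 and 258 (-2.23, adjusted p = 0.0360). On its stronger probe set, at 4316 and 10277 against 22071 and 9942, the arrays overlapped (-1.15, adjusted p = 0.352). Mt2 lay at -1.87 (adjusted p = 0.220).

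Immunoglobulin transcripts were the largest group of related probe sets, 8 of the 62, and all were lower in MT mice. Igha, the heavy chain of IgA, had signals of 519 and 610 in MT mice and 2459 and 3514 in 19-month mice, a difference of -2.38 ± 0.20 (adjusted p = 0.00993), and -2.23 on a second probe set (adjusted p = 0.0217). Jchain, which joins IgA and IgM into polymers, had 193 and 433 against 1373 and 1775 (-2.43, adjusted p = 0.0366). Igkv8-30, a kappa variable segment, had 218 and 1145 against 6533 and 6244 (-3.68, adjusted p = 0.0458). In each case the MT arrays lay below both 19-month arrays, and MT array 2 was above MT array 1. Ighm, the heavy chain of IgM, passed on 1 probe set that was low in MT mice, at 26.8 and 76.4 against 412 and 512, at least 5.59-fold lower against the array median (adjusted p = 0.0458). Its 5 other tested probe sets lay between -1.53 and -3.28 and did not pass. A further 3 probe sets that carry several kappa symbols differed by -2.73, -2.52 and -2.50. Because immunoglobulin probe sets share sequence with related genes, the signal of any 1 of them is uncertain as to its gene.

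All 8 tested genes of the B and plasma cell list lay below 0, with a median of -0.53, or -0.84 without 19-month array 1, and 2 passed (Igha and Jchain). Their summed signal was 1489 and 2088 in MT mice and 8845 and 8178 in 19-month mice. Surface markers of B cells differed less, with Cd79b at -0.53, Cd22 at -0.53 and Ms4a1 at -0.46, none passing. Mzb1 and Igk, also on the list, differed less as well. Mzb1 had 129 and 143 against 181 and 213 (-0.53, adjusted p = 0.429). The Igk probe set had 74.1 and 130 against 96.8 and 107 (-0.05, adjusted p = 0.974), and its arrays overlapped. In bulk liver, fewer cells of a type and less RNA per cell cannot be told apart, here and for the lists that follow.

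Macrophage markers also lay lower in the young MT liver. Of 22 tested markers 21 lay below 0 and 17 had an unadjusted p under 0.05, but only Mpeg1 passed over all probe sets. The median difference was -0.81, against -0.01 over all genes. Mpeg1, a pore-forming protein of phagocytes, had 656 and 595 in MT mice and 1948 and 1644 in 19-month mice (-1.52 ± 0.18, adjusted p = 0.0198). Lyz2, lysozyme, had 3986 and 3527 against 7738 and 12271 (-1.38, adjusted p = 0.0587). Adgre1, which encodes the surface antigen F4/80, had 609 and 580 against 1083 and 1406 (-1.05, adjusted p = 0.0587), and Vsig4, a complement receptor of Kupffer cells, had 3359 and 4032 against 6568 and 10846 (-1.20, adjusted p = 0.0750). Groups were apart for each of these 4 genes. Clec4f, which is particular to Kupffer cells (-0.44), and the scavenger receptors Cd163 (-0.09) and Msr1 (-0.11) were within 2-fold.

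The summed signal of the 22 macrophage markers was 37189 and 42134 in MT mice and 59926 and 95504 in 19-month mice, the 19-month array 2 being the highest. The median of the list was -0.37 without that array and ranged down to -1.20 over the omissions of the 4 arrays. Arrays were separated with MT mice lower for 15 of the 22, where 24.3% of all genes were separated that way, and with MT mice higher for 1, where 22.2% of all genes were. All 6 tested MHC class II genes lay below 0 (median -0.67), and none passed by limma, with 2 at an unadjusted p under 0.05. Of these, Cd74, the invariant chain, had 1091 and 1977 against 3172 and 3395 (-1.16, adjusted p = 0.190) and H2-Eb1 had 709 and 1666 against 2168 and 2368 (-1.06, adjusted p = 0.303). Without MT array 1, 3 of the 6 class II genes lay above 0 and the median was -0.21, while without MT array 2 it was -1.13. The leukocyte gene Lst1 passed at 106 and 99.2 against 333 and 367 (-1.77, adjusted p = 0.0198). Other immune lists had few tested members, with 9 T and NK cell genes (median -0.06) and 4 neutrophil genes (median -0.47, or -0.07 without 19-month array 2), and 0 passed by limma, with 1 of each list at an unadjusted p under 0.05.

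Hepatocyte markers were slightly above 0 where the macrophage markers were below it. Their summed signal was 800321 and 741433 in MT mice and 605170 and 653224 in 19-month mice, and 17 of 18 lay above 0 with a median of 0.27, which quantile normalization brought to 0.04. None of the 18 passed by limma (8 had an unadjusted p under 0.05) and all 18 were within 2-fold. Endothelial markers had a median of -0.25 (-0.12 without MT array 1) with 14 of 18 within 2-fold, and stellate cell and matrix markers a median of 0.06 with 15 of 20. The part of these cell type markers in the single-gene results was not tested.

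**Figure D4:**
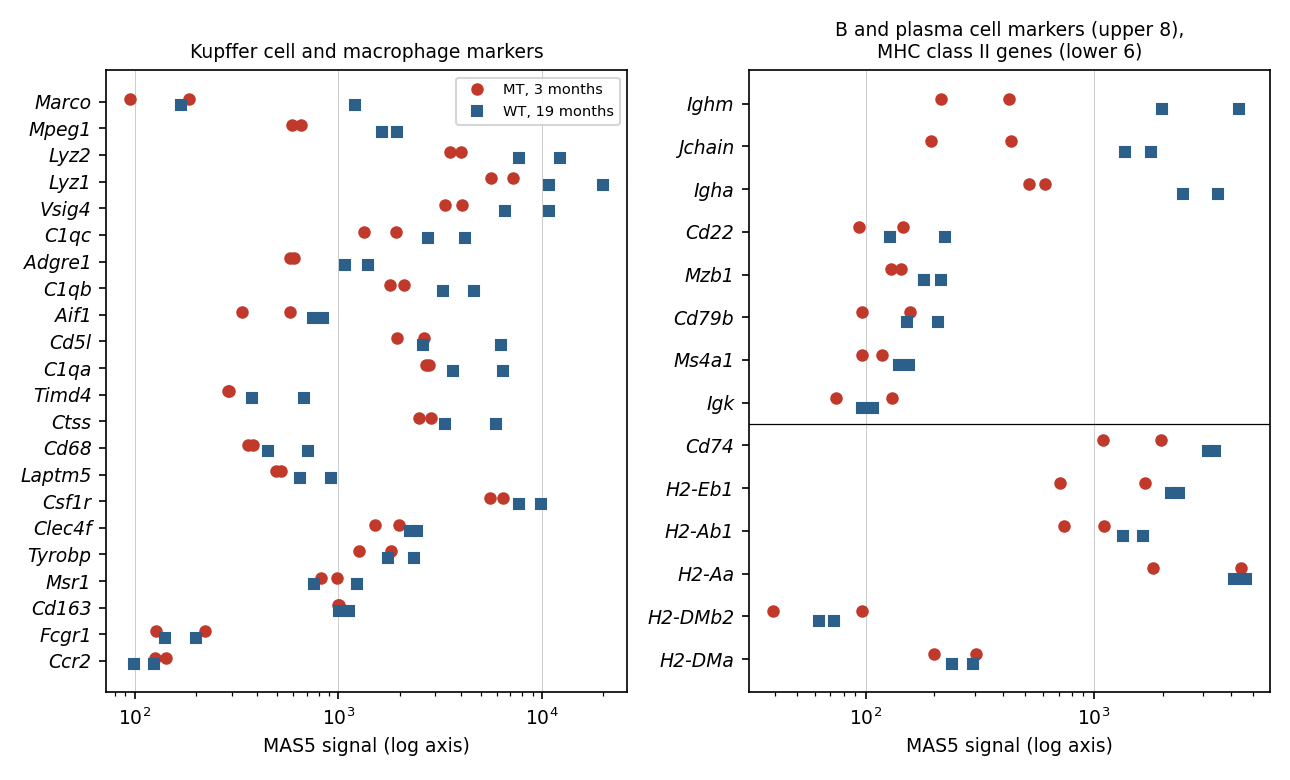
MAS5 signal on a log axis (x) of the tested macrophage markers (left) and of the B and plasma cell and MHC class II genes (right), with a red circle for each MT array and a blue square for each 19-month WT array. The 19-month squares of Mpeg1, Lyz2, Vsig4, Igha and Jchain lie right of both MT circles, while those of Cd163 and Msr1 overlap them.

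The young MT liver and the old WT liver were alike, within 2-fold by the interval of the difference, in most genes of basic cell machinery. Mitochondrial ribosomal proteins were within 2-fold for 76 of 76 genes, cytosolic ribosomal proteins for 36 of 38, proteasome subunits for 35 of 38 and subunits of oxidative phosphorylation for 65 of 71, where 74% of all genes were. None of these genes passed by limma. In the order given, the lists had median log2 signals of 11.0, 14.4, 12.2 and 13.8, against 9.17 for all genes. Brighter probe sets tend to have narrower intervals, and the part of signal level in these shares was not tested. At an unadjusted p under 0.05, 12 mitochondrial ribosomal genes were higher, as were 5 proteasome and 1 cytosolic ribosomal gene, and 1 gene of each of the latter 2 lists was lower. Over all genes 14.6% had such a p in either direction, which is near the share of the proteasome genes, and 723 of 10976 were higher with it. The mitochondrial ribosomal genes lay above 0 in 63 of 76 cases, with a median of 0.17. Their arrays were separated with MT mice higher for 44, where 22.2% of all genes were. The oxidative phosphorylation genes lay above 0 in 68 of 71 cases, with a median of 0.25 and 21 at an unadjusted p under 0.05. Uqcrc2, a core subunit of complex III, had 18173 and 19187 in MT mice and 14440 and 13490 in 19-month mice (0.42, interval 0.15 to 0.69). Atp5b, the catalytic subunit of ATP synthase, differed by 0.05 (interval -0.20 to 0.30), and the ribosomal protein gene Rpl10a by -0.01 (interval -0.26 to 0.24).

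Lipid synthesis genes resembled each other in part. Scd1, the delta-9 desaturase, had 55354 and 43824 in MT mice and 48676 and 49875 in 19-month mice, a difference near 0 (interval -0.31 to 0.31). Its weaker probe set, at 2005 and 1288 against 4117 and 5481, differed by -1.56 and did not pass (adjusted p = 0.0894), so the probe sets of Scd1 disagree. The pentose phosphate enzyme gene Tkt differed by -0.01 (interval -0.29 to 0.27). Of 22 fatty acid synthesis genes 14 were within 2-fold and 0 passed by limma, with 2 at an unadjusted p under 0.05. Acss2, which makes acetyl-CoA from acetate, lay at -0.97 (adjusted p = 0.336). Of 20 cholesterol synthesis genes 6 were within 2-fold, 16 lay below 0 and the median was -0.32. That median rested on MT array 2, since it was 0.03 without it, and Fdps had 9393 and 3051 against 11300 and 13931.

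Genes of glucose and amino acid metabolism lay mostly above 0. Of 11 glucose genes 10 did, with a median of 0.22 and 6 within 2-fold, and of 17 amino acid and urea cycle genes 15 did, with a median of 0.34 and 12 within 2-fold. Quantile normalization brought these medians to 0.14 and 0.17. The glucose median was 0.37 without MT array 2, and the amino acid median 0.19 without MT array 1. None passed by limma, with 3 and 5 at an unadjusted p under 0.05, where 14.6% of all genes were. Gpt2, the mitochondrial alanine transaminase, had 11955 and 9087 in MT mice and 5016 and 4560 in 19-month mice (1.12, adjusted p = 0.0587). Slc37a4, the glucose 6-phosphate transporter, had 10262 and 7053 against 4461 and 4351 (0.95, adjusted p = 0.0945). Both were apart between groups. The glucose transporter Slc2a2 (0.09, interval -0.26 to 0.43) and the urea cycle enzyme Otc (0.13, interval -0.12 to 0.38) were within 2-fold. Acute phase genes were within 2-fold for 21 of 27, and their median of -0.08 changed sign without 19-month array 2 (0.10).

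Replication and heat shock genes lay mostly above 0 without passing on their probe sets of highest mean. Of 23 cell cycle genes 20 lay above 0, with a median of 0.38, 10 within 2-fold and 9 higher at an unadjusted p under 0.05. Over all genes 48.5% lay above 0, 74% were within 2-fold and 723 of 10976 were higher at such a p. Cdt1, which licenses replication origins, had 486 and 516 in MT mice and 273 and 178 in 19-month mice (1.19, adjusted p = 0.0847), and the helicase subunit gene Mcm4 had 622 and 649 against 376 and 292 (0.94, adjusted p = 0.169). Heat shock genes lay above 0 in 17 of 20 cases (median 0.30, 15 within 2-fold). At an unadjusted p under 0.05 by limma, 8 of them were higher and 2 lower, where 14.6% of all genes had such a p. Among them Hsp90aa1 had 17722 and 16141 against 11359 and 11522 (0.56, adjusted p = 0.110). Cdkn1a, which encodes the cell cycle inhibitor p21 and is used as a marker of senescence, had 123 and 142 against 388 and 704 (-1.98, adjusted p = 0.130). The groups were apart for Cdkn1a. On its list of p53 and senescence genes 18 were tested and 0 passed by limma, with 3 at an unadjusted p under 0.05. That is near the 14.6% of all genes with such a p. Of the 18, 6 lay above 0, where 48.5% of all genes did, and 9 were within 2-fold, where 74% were. The median was -0.27, or -0.16 without MT array 2 and -0.14 without 19-month array 1. Trp53inp1, a stress-induced p53 target, lay on the other side with 5457 and 9996 against 4001 and 5516 (0.65, adjusted p = 0.336), and Mdm2, the ligase that degrades p53, lay at -0.53 (adjusted p = 0.312). Cdkn2a, another such marker, was low in MT mice and not tested.

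Lists of genes with sex-biased expression in liver, of interferon targets and of drug metabolism were mixed. Of 8 tested male-biased genes 6 lay below 0, where 51.5% of all genes did, and Cyp7b1 passed. Their median was -0.72, or -0.27 without MT array 2, with differences from -2.23 to 1.17. Cyp4a12a, Hsd3b5, Susd4 and Moxd1, also on the list, were low in both groups and not tested. C6, a complement component, had 289 and 242 in MT mice and 505 and 663 in 19-month mice (-1.13, adjusted p = 0.0685). Of 20 female-biased genes 11 lay above 0 and 9 were within 2-fold, with a median of 0.16 and differences from -2.16 to 3.00. Without 19-month array 1, 18 lay above 0 (median 0.43), and without 19-month array 2, 6 did (median -0.19). On this list Ntrk2, a neurotrophin receptor, had 542 and 184 against 1221 and 1635 (-2.16, adjusted p = 0.0860). Both C6 and Ntrk2 were apart between groups and short of the threshold. Of 27 interferon genes 20 lay below 0, with a median of -0.23, and Gbp6, a guanylate-binding protein, had 276 and 234 against 592 and 1111 (-1.67, adjusted p = 0.0829). The interferon median was 0.01 without MT array 2, -0.04 without 19-month array 2, -0.37 without 19-month array 1 and -0.43 without MT array 1. Of 25 cytochrome P450 genes 19 lay above 0 and 16 were within 2-fold, among them Cyp2e1 at 0.34 (interval 0.09 to 0.59). The P450 median was 0.23, but 0.08 without MT array 1 and 0.46 without MT array 2. None of the female-biased, interferon or P450 genes passed by limma, with 4 of 20, 4 of 27 and 9 of 25 at an unadjusted p under 0.05, against 14.6% of all genes, which is near the share of the interferon genes.

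**Figure D5:**
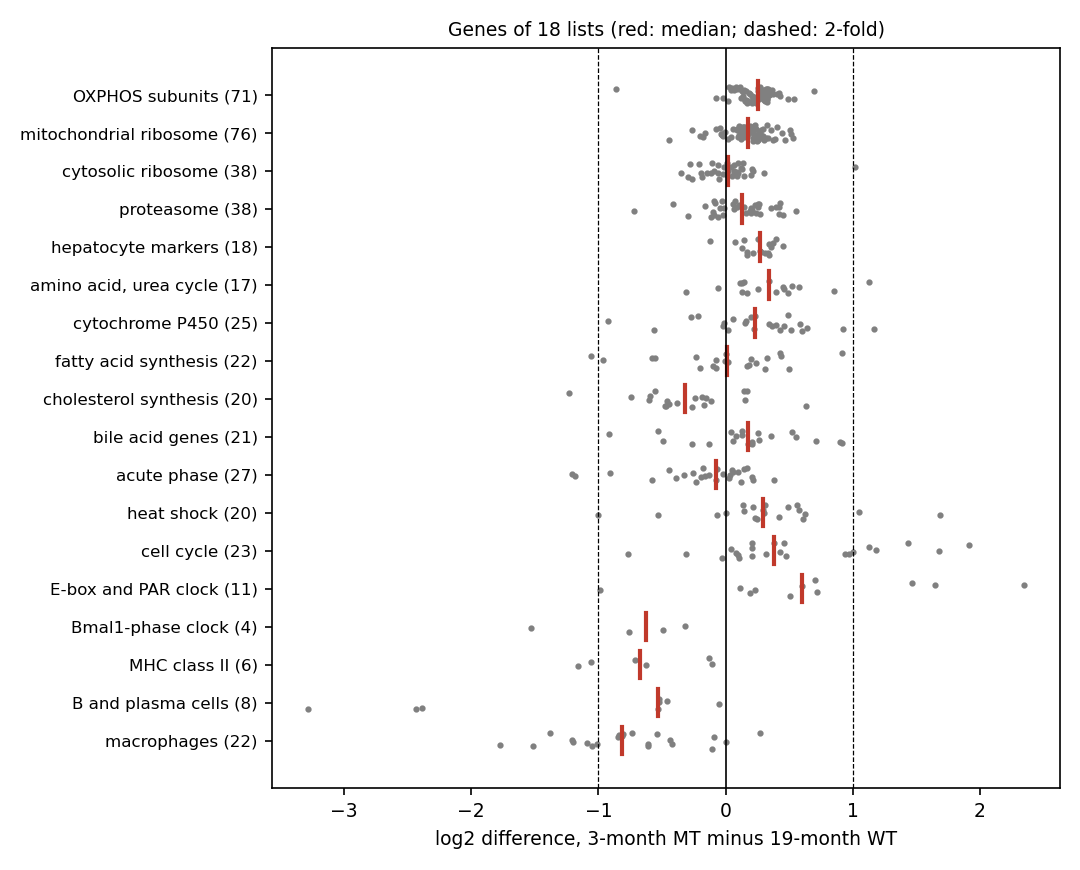
Log2 difference (3-month MT minus 19-month WT, x axis) of each tested gene (grey point) in 18 lists (y axis, with the number of genes), with the median of each list as a red bar and 2-fold as dashed lines. Ribosomal, proteasome, oxidative phosphorylation and hepatocyte genes cluster near 0, while macrophage, MHC class II and B and plasma cell genes lie to the left.

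Sirt1 itself gave nearly the same signals in both groups, 615 and 713 in MT mice and 619 and 716 in 19-month WT mice, a difference of -0.01 (interval -0.46 to 0.44). Where its probe set lies relative to the deleted exons is not known here, so this signal is no check of the genotype. A further list held genes measured by other assays as well. Of its 13 tested genes, Per2 and Usp2 passed and 5 were within 2-fold. The study chose both from its own array results, so they are not independent evidence of a direction. Within 2-fold were Srebf1, a regulator of lipid synthesis (0.24), its counterpart Mlxipl (-0.23), Hif1a (-0.15), Kcnk5 (-0.17) and Sirt1. The mitochondrial sirtuin gene Sirt3 was also alike, with 3231 and 3042 against 3452 and 2974 (-0.03, interval -0.36 to 0.30), and 18 of 23 sirtuin and NAD genes were within 2-fold. The gluconeogenic genes Pck1 (0.74, adjusted p = 0.233) and G6pc (0.72, adjusted p = 0.412) did not pass and had intervals that reached beyond 2-fold. Other tested probe sets of Pck1 differed by 1.80 and -0.33 and did not pass, so they disagree. G6pc had 11358 and 11428 in MT mice and 4399 and 10914 in 19-month mice, so its 19-month arrays lay far apart.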

How the data were processed

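Livers were measured on Affymetrix mouse arrays, 2 arrays per group. Per the labels and methods, RNA was preserved in RNALater, extracted and hybridized, and the deposited array intensities are signal values made by the authors with MAS5, which subtracts background, summarises each probe set and scales each array. The trimmed mean of the deposited signals was 500.004 on each of the 4 arrays, and the number of arrays limits the precision. Presence calls were not used here, so the filter of the methods on absent probes was replaced by a filter on signal.

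Signals under 1 were set to 1 and log2 was taken. Of 45101 probe sets, 64 controls were left out. The brighter 50% of the rest, ranked by the average log2 signal of the 8 arrays (at or above 6.18), entered 1 limma model of all 4 groups (version 3.58.1, R 4.3.3, lmFit, then eBayes using a trend of the variance). The contrast was MT minus 19-month WT, with Benjamini-Hochberg adjustment at 0.05, on 4 residual plus 5.37 prior degrees of freedom. With 2 arrays against 2, the smallest p of an exact permutation test is 0.333, so none is given. Likeness means a 95% interval of the difference within 2-fold. A group below the array median on both arrays is called low, and its fold is a bound against that median.

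Probe sets were named from the platform annotation: 34945 had 1 gene symbol, 932 several and 9160 none, and 34741 were found in the RefSeq table by gene identifier. A gene in a list is its probe set of highest mean with 1 symbol. The text names the 12 largest passing genes in each direction and the measured members of the clock lists and of the list the study followed. In other lists a rule selected the 4 members with the largest test statistic and the 2 whose intervals stay nearest to 0, and the text prints a part of these, chosen after their values were seen. Other genes named as passing, further probe sets of a named gene, and Cd22, Cd79b, Ms4a1, Clec4f, Cyp7a1 and Xist were chosen after their values were seen. Members and lists were chosen with earlier results of these data known. Python 3.11.15, numpy 2.4.6, pandas 2.3.3 and matplotlib 3.10.9 were used for summaries, promoter searches and plots, and the fit was tested on simulated data.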

Additional observations from a re-analysis of the deposited data

How the results depend on the processing

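The 62 probe sets that passed became 30 with the 4 arrays alone, 26 without the 3-month WT arrays, 2 without a variance trend, 214 at an adjusted p under 0.1 and 3 at an adjusted p under 0.01. The methods' t-test gave 667 at an unadjusted p with a fold over 1.5, and 0 after Benjamini-Hochberg, where limma gave 2919 at an unadjusted p under 0.05. Leaving out 1 array at a time gave 6 to 112. With the replicate block the count was 67, of which 52 were shared, and same-numbered arrays of different groups had deviations correlated between -0.03 and 0.14, so the numbers gave no pairing. Other scalings, filters and the robust prior gave 57 to 87. The number within 2-fold stayed between 10553 and 16690, except that a limit of 1.5-fold left 5748. Some named genes whose intervals reached beyond 2-fold changed sign as arrays were left out. The difference of Cyp7a1 took values between -0.71 and 1.12 (-0.62 without MT array 1, -0.71 without 19-month array 2). The difference of Igk changed sign without MT array 1, and that of the second Arntl probe set without 19-month array 2. The causes were not tested. With 2 arrays per group, small differences could not be detected, and some large ones did not pass either. Examples are Dbp at 2.35 (adjusted p = 0.321 by limma) and Cdkn1a at -1.98 (adjusted p = 0.130 by limma). A gene that did not pass is therefore not shown to be alike.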

Other observations

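The 12-month WT arrays give a further age beside the genes above, as signals with no test. Usp2 was at 241 and 443 in 12-month mice, either side of the 19-month signals, and Per2 was at 227 and 305, below both 19-month arrays. Coq10b was at 458 and 665, and Inmt at 17580 and 19162, below both MT arrays. Hopx, at 6307 and 6427, lay between the MT arrays, and Dpp4, at 1712 and 1316 on the probe set that passed, lay above MT array 1 on both arrays.

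Among the genes lower in MT mice, Ppp1r3c was at 4859 and 3372, Slc10a2 at 538 and 1722 and Csad at 1410 and 2979 in 12-month mice, between the MT and the 19-month signals. Igha at 1721 and 1553, Jchain at 695 and 1173, Mpeg1 at 1067 and 807 and Dnase2a at 1253 and 2036 lay between them as well. Mrnip, at 473 and 535, Mt1, at 953 and 864, and Cyp7b1, at 3304 and 3692, were above both 19-month arrays.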
